A study of Schmidtea mediterranea with 24 samples.

Results

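The 100 most abundant transcripts were followed in tail fragments of the planarian Schmidtea mediterranea. The counts of each library were scaled to a total of 1000000 (CPM), so that CPM is a share of reads, and the 100 transcript IDs with the highest mean CPM over all 24 libraries were taken from the 28069 IDs of the table. All 100 passed the filter on low counts, which kept 19761 IDs. The choice used the mean level over all libraries, so that a high level is the rule and not a result. An ID that is very high in 1 group only can also enter in this way.

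Planarians are flatworms that regrow missing body parts from a pool of dividing stem cells, and a cut tail fragment regenerates a new head. The egr genes of animals encode zinc-finger transcription factors, several of which are switched on soon after a stimulus or an injury. In most tissues a small part of all transcripts, often of translation, energy supply and the specialised functions of the tissue, takes a large part of the messenger RNA. When such transcripts lose reads, all others gain share in a library of fixed size, which is why scaling matters for them.

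All animals were asexual worms of the clonal line CIW4 that were fed double-stranded RNA 6 times, starved and then amputated. The control groups received double-stranded RNA against egfp, a jellyfish gene that worms do not have, and the other groups received double-stranded RNA against egr-2. RNA was taken from the front part of tail fragments, next to the cut, at 0 h, 2 days (2 d) and 4 days (4 d) after amputation. Each of the 6 groups had 4 libraries, each labelled as a separate biological replicate and made from 10 pooled fragments, so differences between single animals do not show. The tables give no gene names. Neither egr-2 nor the markers of any tissue could therefore be looked up, no role can be given to an ID, and the labels could not be checked against the targeted transcript.

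Levels are given as TMM-normalised CPM, in which a factor per library sets the bulk of the IDs level between libraries. A member is called where its p from edgeR's quasi-likelihood test, adjusted over all tested IDs, is below 0.05. Total counts per library were 13449251 to 30829850. The members' counts lay between 191 and 730945 per library with a median of 35993. At that median the counting error is 0.527%, which covers counting error only. The median biological coefficient of variation in the edgeR fit was 0.065 for the members and 0.090 for all tested IDs. Among the groups, egr-2 RNAi at 0 h had the widest replicate spread, with a median SD of 0.10 on the log2 CPM scale over the members against 0.052 to 0.074 in the other 5 groups.

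The 100 IDs held a larger part of all counts at 0 h than at 2 d and 4 d in both RNAi conditions. In control fragments at 0 h they held 26.7%, 26.7%, 26.7% and 26.0% of the counts in the 4 libraries, in control at 2 d 20.4%, 20.4%, 20.9% and 20.6%, and in control at 4 d 21.0%, 20.5%, 20.8% and 20.6%. In egr-2 RNAi fragments the shares were 27.2%, 26.8%, 27.0% and 26.4% at 0 h, 20.7%, 20.4%, 21.0% and 20.1% at 2 d, and 21.2%, 20.9%, 20.5% and 20.5% at 4 d. Every 0 h library lay above every later library, while control and egr-2 RNAi overlapped at each time, and 2 d overlapped with 4 d in each condition. The group means were 26.5% ± 0.35, 20.6% ± 0.22 and 20.7% ± 0.24 in control at 0 h, 2 d and 4 d (SD, n = 4). They were 26.9% ± 0.34, 20.6% ± 0.39 and 20.8% ± 0.33 in egr-2 RNAi (SD, n = 4). The share is given as a description, because the members were chosen on these libraries. The size of the fall depended on that choice, and with members chosen by median CPM it was smaller, as given in the closing section.

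**Figure D1:**
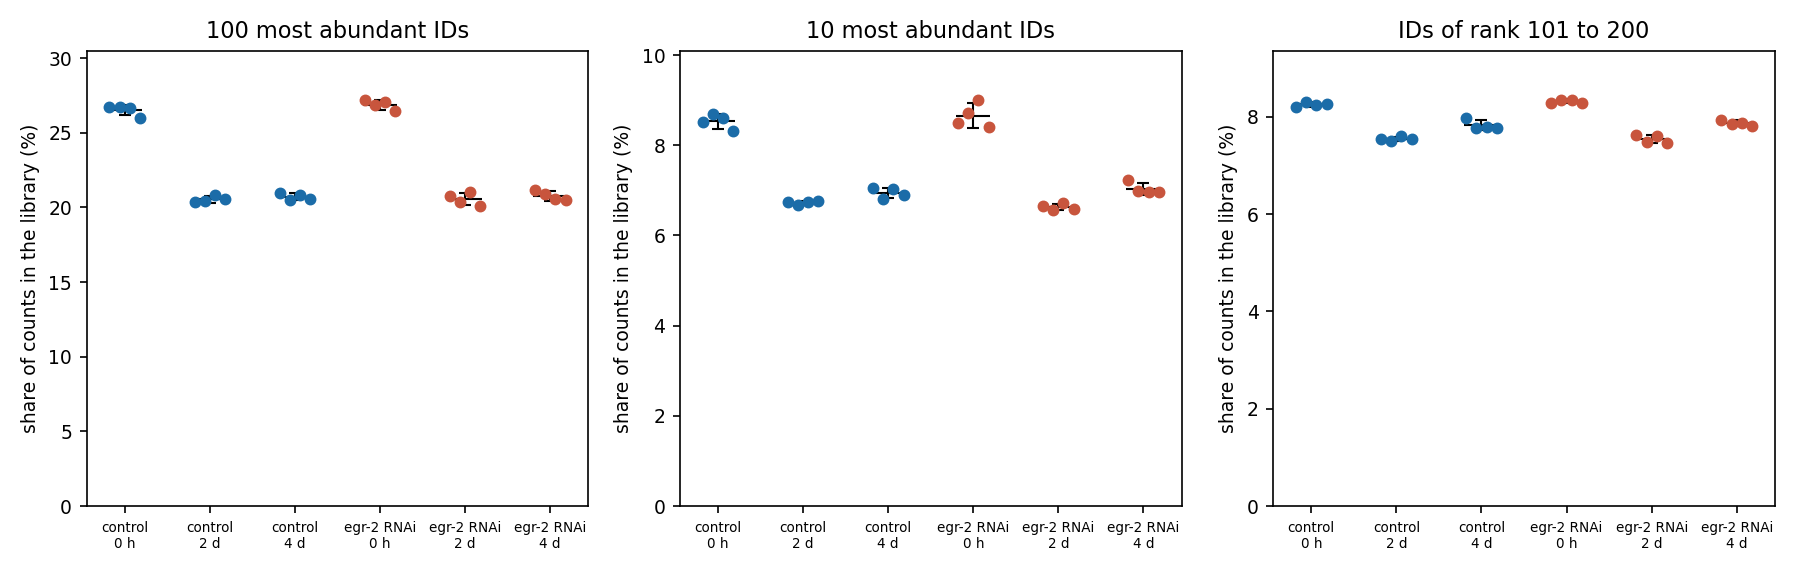
Share of the counts of each library (%) held by the 100 most abundant IDs, by the 10 most abundant and by the next 100 ranks. Each point is 1 library, the bar is the mean and the whiskers the SD of 4 libraries. The 100 IDs held 26.0% to 27.2% at 0 h and 20.1% to 21.2% later.

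The fall in share reached down the list unevenly. Ranks 1 to 10 held 8.53% ± 0.17 of the control counts at 0 h and 6.73% ± 0.040 at 2 d, and ranks 1 to 25 held 14.5% ± 0.19 and 10.2% ± 0.15 (SD, n = 4). The next 100 ranks held 8.26% ± 0.045 at 0 h and 7.54% ± 0.040 at 2 d (SD, n = 4). At 0 h, 505 to 562 IDs were needed to reach 50% of the counts of a library, against 779 to 827 in the later libraries. With the top 100 chosen anew in each library, the share was 26.9% to 28.4% at 0 h and 20.9% to 22.1% later.

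The list itself was largely the same in the 2 RNAi conditions and turned over with time. Of the 100 IDs highest in control at 0 h, 93 were also among the 100 highest in egr-2 RNAi at 0 h, and the same count was 93 at 2 d and 95 at 4 d. Control at 0 h and control at 2 d had 68 IDs in common, and control at 2 d and 4 d had 88. In all, 148 IDs were in the top 100 of at least 1 group, 61 in that of all 6, and 54 in that of each of the 24 libraries. Those 54 and those 61 are all members, which the choice by mean CPM over the same libraries makes nearly certain.

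At the lower end the list has no natural break. The member of rank 98, dd_Smed_v6_536_0_1, had a mean of 1059 CPM, rank 99, dd_Smed_v6_810_0_1, had 1057 CPM and rank 100, dd_Smed_v6_133_0_1, had 1053 CPM. Just outside, dd_Smed_v6_475_0_1 had 1053 CPM, dd_Smed_v6_184_0_1 had 1044 CPM and dd_Smed_v6_349_0_1 had 1036 CPM. These IDs lay side by side, and their ranges over the libraries overlapped.

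A share of reads is not a level per molecule, since long transcripts yield more fragments. The members' contigs were 387 to 17568 bases long with a median of 1500, against 1182 for all tested IDs. Ranked by TPM, which divides by length, 65 of the 100 stayed in the top 100, and the lowest of the members came to rank 1195. That one is dd_Smed_v6_194_0_1, which at 17568 bases is also the longest. Per length, dd_Smed_v6_3_0_1 stayed first with a mean of 13844 TPM, and dd_Smed_v6_91_0_1, rank 5 by reads with 12342 bases, came to rank 264 with 583 TPM. Of the members, 3 share the component number of another contig in the table, dd_Smed_v6_10_0_1, dd_Smed_v6_238_1_1 and dd_Smed_v6_51_1_1, so that reads of 1 gene may be divided there.

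The 5 highest IDs behaved in different ways. dd_Smed_v6_3_0_1 had 25574, 28665, 25908 and 26708 TMM-normalised CPM in the 4 control libraries at 0 h, 11537, 10967, 11669 and 11944 at 2 d and 12569, 11041, 12480.2 and 11612 at 4 d. Every 0 h library lay at more than 2 times the highest later one, and 2 d and 4 d overlapped. Its log2 fold change from 0 h was -1.21 (SE 0.05; adjusted p = 4.72e-18) at 2 d and -1.16 (SE 0.05; adjusted p = 1.06e-17) at 4 d by edgeR's quasi-likelihood test. In egr-2 RNAi it had 30502, 30588, 31518 and 31166 CPM at 0 h, 12653, 11970.3, 11749 and 11616 at 2 d and 13265, 12584, 11611 and 11645 at 4 d. All 4 egr-2 RNAi values at 0 h lay above all 4 control values, a log2 difference of 0.21 (SE 0.05; adjusted p = 0.0090) in the quasi-likelihood test, while the conditions overlapped at 2 d and 4 d.

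dd_Smed_v6_15_0_1 followed with 19854, 19709, 20514 and 18624 CPM in control at 0 h, 12222, 12614, 13252 and 12806 at 2 d and 13714, 13440.5, 12850.4 and 13021 at 4 d. The 0 h libraries stood above the others, and its log2 fold change was -0.63 and -0.57 (quasi-likelihood adjusted p = 2.88e-11 and 2.32e-10). In egr-2 RNAi it had 18537, 19657, 20928 and 16839 CPM at 0 h, 12346, 11803, 12986 and 11145 at 2 d and 12905, 12578, 12829 and 12698 at 4 d, and control and egr-2 RNAi overlapped at every time.

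dd_Smed_v6_30_0_1 was the steadiest of all members in raw share. Its highest share was 1.09 times its lowest over the 24 libraries, with group means of 0.963% to 1.01% of the counts. After TMM scaling it had 11232, 11248, 11362 and 10927 CPM in control at 0 h, 9497, 9404, 9742 and 9612 at 2 d and 9638, 8959.6, 9046 and 8880.3 at 4 d. On that scale all later libraries lay below all 0 h libraries, with log2 fold changes of -0.23 and -0.29 (quasi-likelihood adjusted p = 2.82e-06 and 3.49e-08). Scaled by total counts alone the values were 0.01 (adjusted p = 0.761) and -0.03 (adjusted p = 0.399), so this call rests on the scaling.

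dd_Smed_v6_38_0_1 depended on the scaling in the same way. It had 5362, 5488, 5610.1 and 5641 CPM in control at 0 h, 5129, 5046, 4744 and 4848 at 2 d and 5617, 5023, 4841 and 4858 at 4 d, so that 4 d overlapped with 0 h and 2 d did not. The quasi-likelihood log2 fold changes were -0.16 (adjusted p = 0.0069) and -0.12 (adjusted p = 0.041) with TMM, and 0.08 (adjusted p = 0.118) and 0.14 (adjusted p = 0.0040) with total counts alone. The sign thus turned at both times.

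dd_Smed_v6_91_0_1 was the only one of the 5 that rose on the TMM scale. It had 4349, 5100.1, 4549 and 3738 CPM in control at 0 h, 6454, 6656, 5635 and 6544 at 2 d and 4102, 4339.7, 5192 and 5392 at 4 d, and in egr-2 RNAi 3192, 4443, 6014 and 3631, 5616, 5242, 5960.3 and 6691 and 6217, 5358, 4684 and 5522. In control all 2 d libraries lay above all 0 h libraries and 4 d overlapped with 0 h, while in egr-2 RNAi replicate 3 at 0 h lay within the 2 d range. The rise to 2 d was 0.51 (SE 0.13; adjusted p = 0.0017) in control and 0.44 (SE 0.13; adjusted p = 0.0056) in egr-2 RNAi, log2 fold changes of the quasi-likelihood test.

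Between 0 h and the later times most members fell on the TMM scale. In control, 84 of the 100 passed an adjusted p of 0.05 between 0 h and 2 d, 17 higher and 67 lower, against 48.6% of all tested IDs (25.3% higher and 23.3% lower). Between 0 h and 4 d, 81 passed, 16 higher and 65 lower, against 50.0% (26.6% higher and 23.4% lower). The members' median log2 fold change was -0.29 and -0.31, and that of all tested IDs was 0.01 and 0.03. On the TMM scale 18 members fell at least 2-fold at 2 d and 18 at 4 d, and 0 rose 2-fold at either time. With total counts alone some did rise 2-fold by 2 d, for example dd_Smed_v6_280_0_1 by 1.17 and dd_Smed_v6_320_0_1 by 1.05 on the log2 scale. The share of all tested IDs past 2-fold is not given here, so these counts are not set against it. In bulk samples, fewer cells of a type and less RNA per cell cannot be told apart.

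In egr-2 RNAi fragments the counts were close to these. From 0 h to 2 d 86 members passed, 17 higher and 69 lower, against 50.0% of all tested IDs (25.4% higher and 24.6% lower), and from 0 h to 4 d 86 passed, 17 higher and 69 lower, against 50.6% (25.7% higher and 24.9% lower). The conditions share no library. Called in both were 81 members at 2 d, 17 of them higher and 64 lower, and 78 at 4 d, 15 higher and 63 lower, with 0 in opposite directions. Of all tested IDs 40.6% at 2 d and 39.3% at 4 d were called in both in the same direction. The groups of 0 h and 2 d did not overlap for 88 members in control, against 46.8% of all tested IDs, and for 76 in egr-2 RNAi, against 40.6%.

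The split between falls and rises depends on the scaling. With total counts alone, under which the median of all tested IDs was 0.25 at 2 d and 0.30 at 4 d, 33 members were higher and 43 lower in control at 2 d, and 35 were higher and 42 lower at 4 d. Of all tested IDs, 42.7% were then higher and 12.8% lower at 2 d, and 47.6% higher and 12.0% lower at 4 d. The egr-2 RNAi libraries gave 35 higher, 41 lower at 2 d and 32 higher, 41 lower at 4 d, against 46.7% higher, 12.9% lower and 53.6% higher, 11.0% lower of all tested IDs. Called lower under both scalings were 43 members at 2 d and 42 at 4 d in control, called higher under both were 17 and 16, and 3 and 2 members were lower with TMM and higher with total counts. Relative to the median of all tested IDs the members' median was lower by 0.30 at 2 d and 0.34 at 4 d under both scalings. A change of scaling shifts all IDs by nearly the same amount, so this likeness was fixed in advance and checks nothing. The choice of members bears on the split as well. With the 100 IDs highest in the 2 d and 4 d libraries, a list chosen after the data were seen, 22 were higher and 58 lower in control at 2 d. With those highest at 0 h it was 6 and 81.

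**Figure D2:**
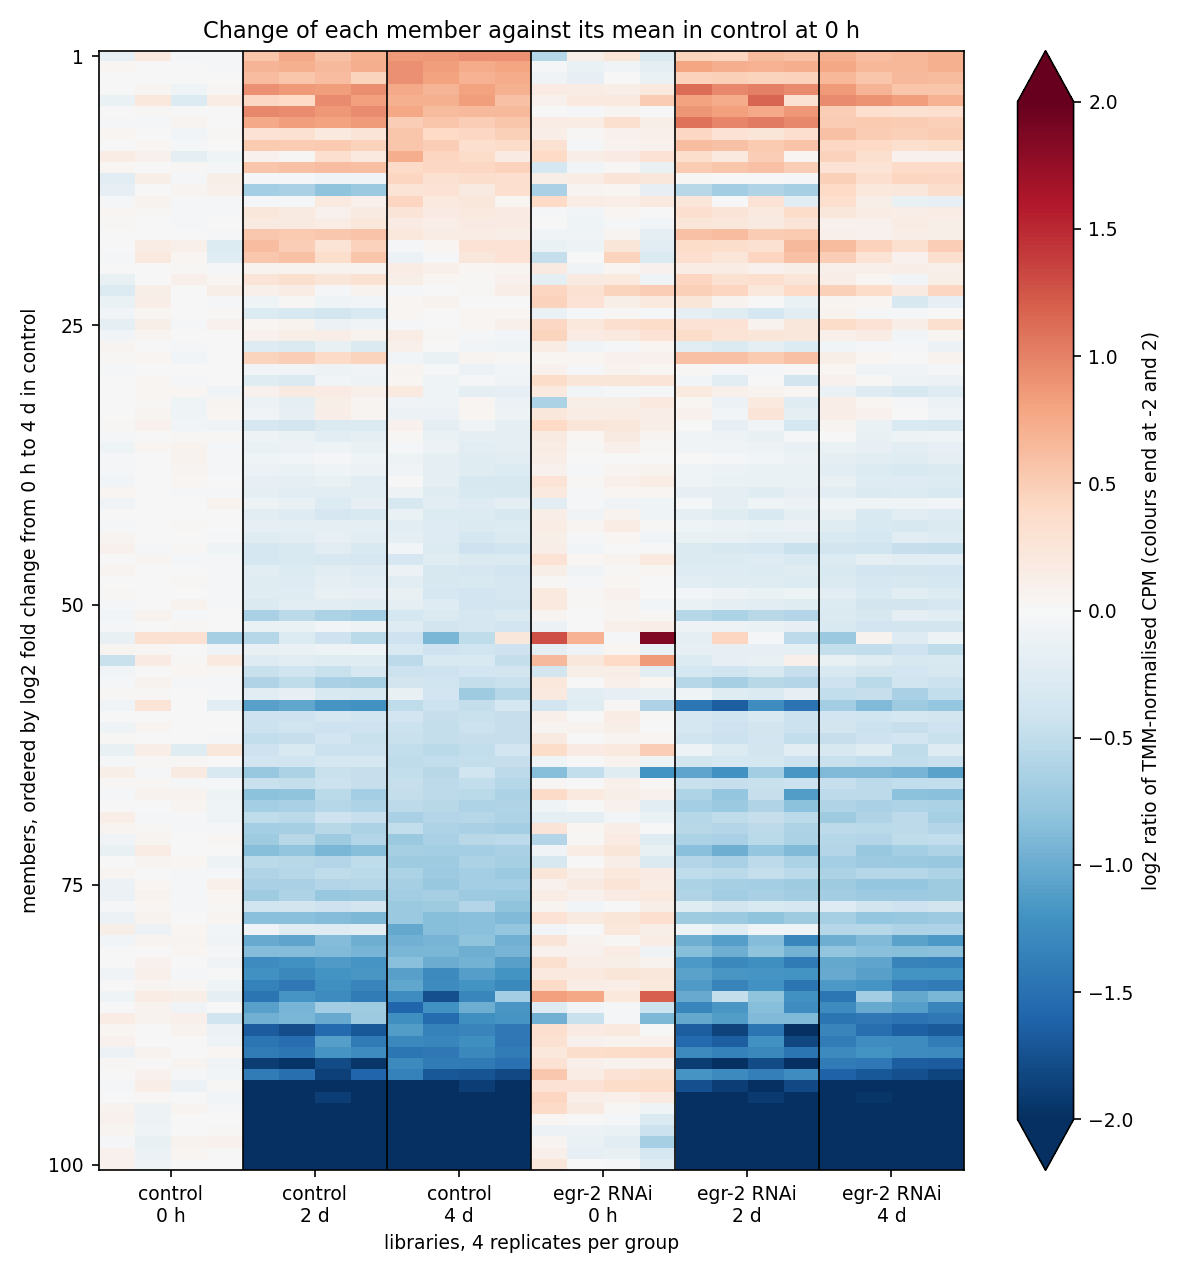
TMM-normalised CPM of each of the 100 members in each of the 24 libraries, as log2 ratio to its own mean in control at 0 h. Rows are ordered by the change from 0 h to 4 d in control, and colours end at -2 and 2. The 2 d and 4 d columns are blue in most rows in both conditions, and the lowest rows are the 6 members that fell over 100-fold by 4 d.

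From 2 d to 4 d fewer members changed. In control 38 passed, 15 higher and 23 lower, against 22.1% of all tested IDs (11.4% higher and 10.7% lower), with a median log2 fold change of -0.03. In egr-2 RNAi 40 passed, 11 higher and 29 lower, against 26.7% (12.3% higher and 14.4% lower). Called in both conditions were 27 members, 10 higher and 17 lower, against 16.6% of all tested IDs called in both in the same direction. With total counts alone 17 were higher and 22 lower in control, against 12.6% and 8.89% of all tested IDs, and in egr-2 RNAi 17 rose and 25 fell, against 15.1% and 10.7%.

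Many members lost share, but the 10 largest losses made up most of the summed loss. In control, 56 members lost share from 0 h to 2 d, a sum of -8.05 percentage points, and 44 gained 2.07 points, a net change of -5.98 points. From 0 h to 4 d the net change was -5.81 points, and in egr-2 RNAi it was -6.32 and -6.11 points. The largest loss was that of dd_Smed_v6_3_0_1, with -1.18 points at 2 d and -1.11 at 4 d in control, which is 19.7% and 19.1% of the net change. Under egr-2 RNAi this was -1.40 and -1.33 points. The 10 largest losses summed to -5.52 points at 2 d and -5.55 at 4 d in control, out of -8.05 and -7.98 points. The largest gains were 0.27 points at 2 d, by dd_Smed_v6_91_0_1, and 0.21 points at 4 d, by dd_Smed_v6_37_0_1, named here after its values were seen.

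**Figure D3:**
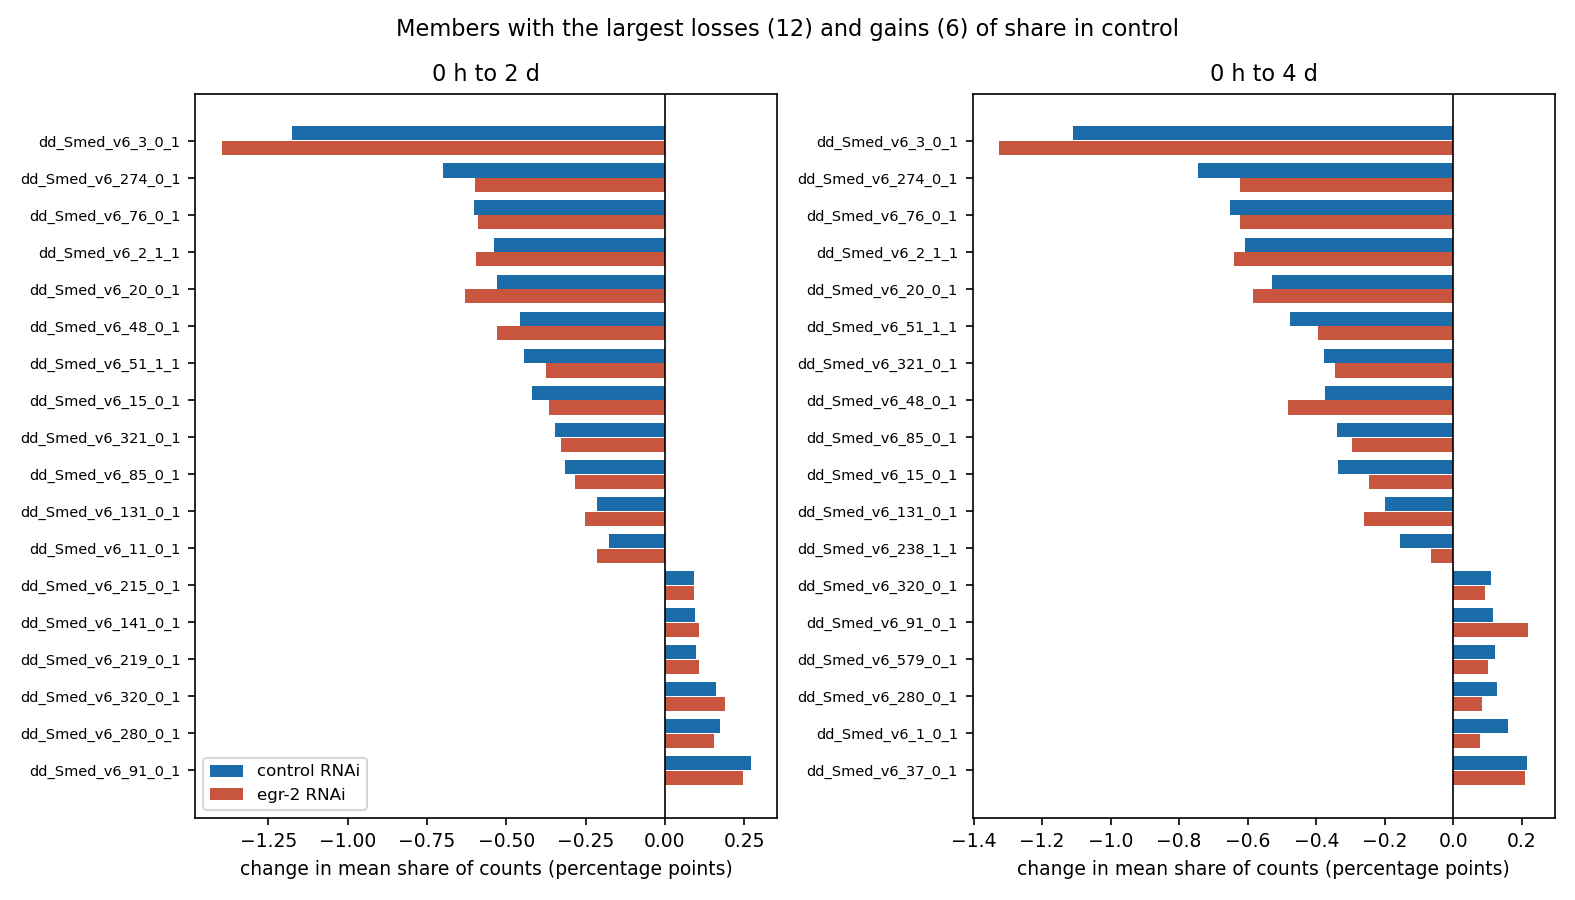
Change in the mean share of counts from 0 h to 2 d (left) and to 4 d (right), in percentage points of all counts, for the 12 members with the largest losses and the 6 with the largest gains in control. Bars give control RNAi (blue) and egr-2 RNAi (red), each the difference of means of 4 libraries. dd_Smed_v6_3_0_1 lost 1.18 points at 2 d and 1.11 at 4 d in control.

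A group of 6 members was nearly lost after amputation and stood apart from the rest of the list. They were picked after their values were seen, as the members that fell at least 16-fold from 0 h to 4 d in control, and they are dd_Smed_v6_274_0_1, dd_Smed_v6_2_1_1, dd_Smed_v6_76_0_1, dd_Smed_v6_51_1_1, dd_Smed_v6_321_0_1 and dd_Smed_v6_85_0_1. Their log2 fold changes from 0 h to 4 d in control ran from -6.90 to -8.59, that is 120-fold to 385-fold lower, and the next largest fall among the members was -2.24. They are members through their 0 h level alone, so their falls are given as a description with no p. The lowest count of any of them at 4 d was 191, so the 4 d levels do not rest on empty counts.

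dd_Smed_v6_76_0_1 fell furthest by 4 d. In control it had 7731, 6870.0, 7250.1 and 7331 TMM-normalised CPM at 0 h, 424, 532, 716 and 386 at 2 d and 18.9, 15.8, 28.1 and 13.0 at 4 d. The egr-2 RNAi libraries had 8507, 7308, 7084 and 6180.0 CPM at 0 h, 326, 256, 403 and 270.4 at 2 d and 9.26, 17.1, 15.1 and 8.23 at 4 d. No library of 1 time reached any library of another time in either condition. The fitted log2 fold change in control was -8.59 from 0 h to 4 d and -4.76 from 2 d to 4 d, and in egr-2 RNAi the change from 0 h to 4 d was -9.20.

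dd_Smed_v6_274_0_1 had the largest fall by 2 d. In control it had 8661, 7917, 8388 and 8477 CPM at 0 h, 409.8, 491, 698 and 368 at 2 d and 39.8, 34.0, 48.9 and 28.6 at 4 d. Under egr-2 RNAi the values were 7676, 7697, 7599 and 6237 CPM at 0 h, 259.6, 229, 386 and 231 at 2 d and 19.7, 33.5, 31.4 and 22.6 at 4 d. The times were again fully separate, and the fitted log2 fold change from 0 h to 2 d was -4.09 in control and -4.72 in egr-2 RNAi. At 2 d egr-2 RNAi replicate 3 lay within the control range and the other 3 lay below it.

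dd_Smed_v6_85_0_1 was the second by both measures. It had 4019, 3508, 3881 and 3778 CPM in control at 0 h, 208, 254, 328 and 172 at 2 d and 18.5, 14.0, 20.1 and 9.91 at 4 d, and in egr-2 RNAi 4064, 3384, 3438 and 2999, 138, 97.4, 175 and 119 and 8.81, 14.4, 10.4 and 6.29. Each step was a fall with no overlap, with fitted log2 fold changes in control of -3.98 to 2 d and -3.95 from there to 4 d.

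The 6 IDs together held 3.22% ± 0.19 of the control counts at 0 h, 0.28% ± 0.077 at 2 d and 0.019% ± 0.0044 at 4 d (SD, n = 4). In egr-2 RNAi they held 2.93% ± 0.33, 0.17% ± 0.038 and 0.013% ± 0.0036 (SD, n = 4). The other 94 members held 23.3% ± 0.42, 20.3% ± 0.18 and 20.7% ± 0.24 in control and 23.9% ± 0.17, 20.4% ± 0.36 and 20.8% ± 0.33 in egr-2 RNAi (SD, n = 4). The share of the 94 thus also fell without overlap between 0 h and the later libraries. Replicates of the 6 IDs spread more widely after 0 h. Their median SD on the log2 CPM scale was 0.077 at 0 h, 0.40 at 2 d and 0.35 at 4 d in control. In egr-2 RNAi it was 0.18, 0.35 and 0.42. Over all 24 libraries together the median biological coefficient of variation was 0.19 for the 6 against 0.063 for the 94.

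**Figure D4:**
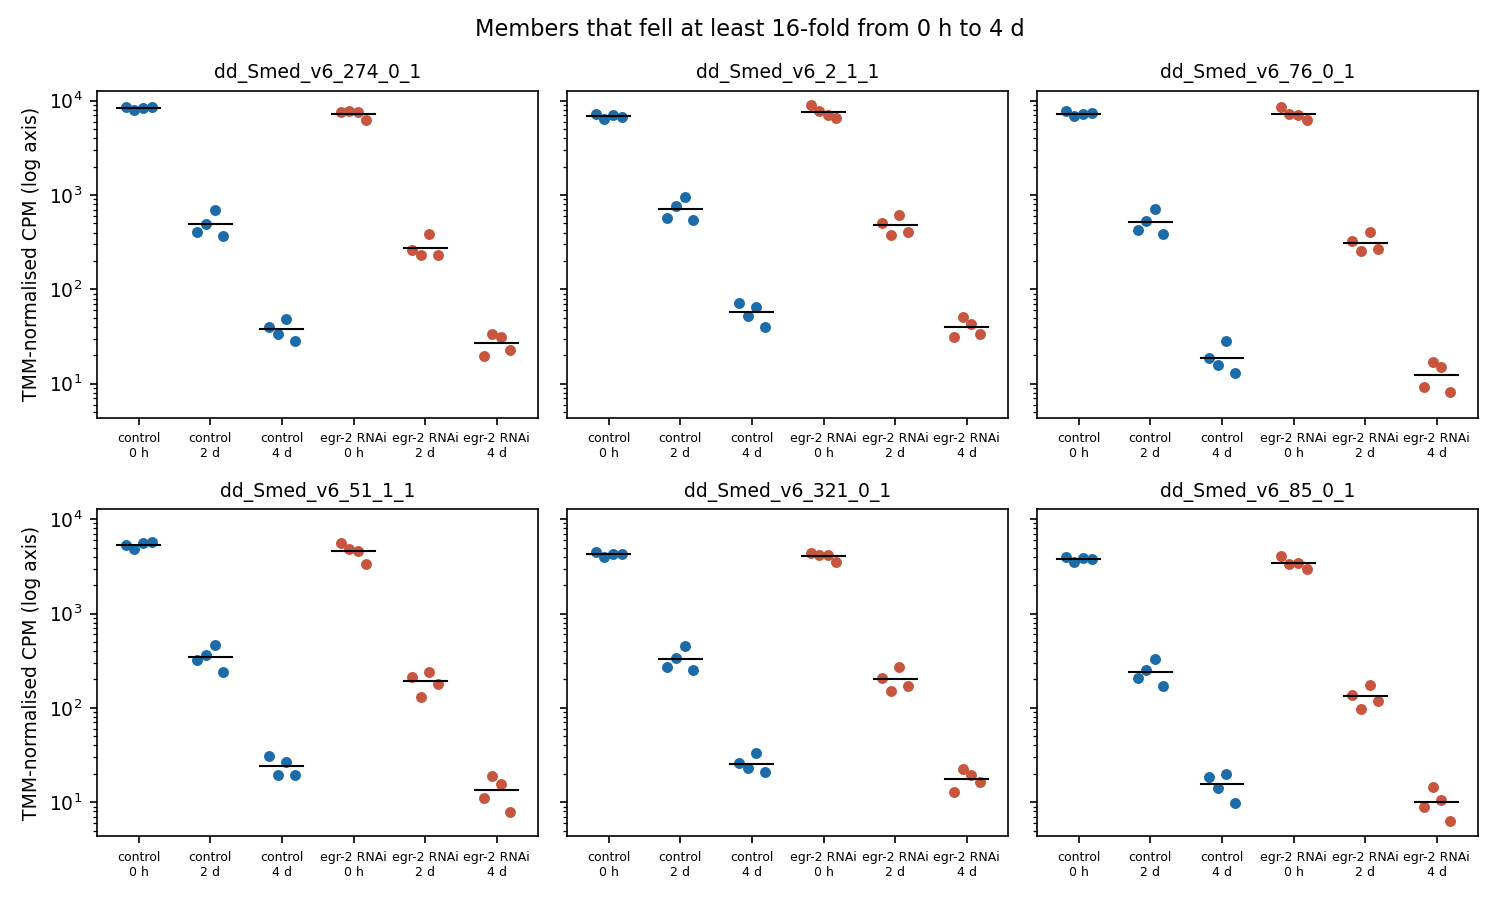
TMM-normalised CPM of the 6 members that fell at least 16-fold, 1 panel each, on a log axis. Each point is 1 library, blue for control and red for egr-2 RNAi, and the line is the mean of 4 libraries. All 6 step down from 0 h to 2 d and again to 4 d with no overlap between times, and in every panel the egr-2 RNAi mean at 2 d and at 4 d is below the control mean.

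At 2 d and 4 d the fitted egr-2 RNAi effect was negative for all 6, and how many passed the test depended on the setting. The log2 fold changes against control were -0.87 to -0.58 at 2 d and -0.86 to -0.50 at 4 d, after -0.21 to 0.14 at 0 h. Called at 2 d were dd_Smed_v6_274_0_1 with -0.83 (SE 0.18; adjusted p = 0.029) and dd_Smed_v6_85_0_1 with -0.86 (SE 0.19; adjusted p = 0.037), both by the quasi-likelihood test and both with overlapping groups. Called at 4 d was dd_Smed_v6_51_1_1. The SEs and p of these calls use 1 estimate of spread per ID over all groups, including 0 h, where the 6 IDs spread less. They do not measure the wider spread at 2 d or 4 d alone. Calls for the 6 at 2 d numbered 0 without control replicate 2 or 3 or without egr-2 RNAi replicate 1, 2 or 4, and 6 without egr-2 RNAi replicate 3. At 2 d they numbered 5 with the compared groups fitted alone and 4 with total counts alone or without the filter, and at 4 d 2 and 1. For 0 of the 6 did the RNAi effect differ between times by the interaction test. Control replicate 3 was the highest and control replicate 4 the lowest control library at 2 d for dd_Smed_v6_76_0_1, dd_Smed_v6_274_0_1, dd_Smed_v6_85_0_1 and dd_Smed_v6_51_1_1 alike, so the 6 IDs are not separate observations of the effect.

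Among the rises, dd_Smed_v6_280_0_1 was first by 2 d. It had 1535, 1565, 1534 and 1535 CPM in control at 0 h, 3008, 2981, 2818 and 2978 at 2 d and 2631, 2396, 2427 and 2422 at 4 d. Under egr-2 RNAi it had 1549, 1511, 1599 and 1541 CPM at 0 h, 2838, 2734, 2609 and 2808 at 2 d and 2175, 1944, 1904 and 1939 at 4 d. The times did not overlap in either condition, with the peak at 2 d. The log2 fold change from 0 h to 2 d was 0.93 (SE 0.04; adjusted p = 1.82e-16) in control and 0.83 (SE 0.04; adjusted p = 2.27e-15) in egr-2 RNAi, and from 2 d to 4 d it was -0.26 (SE 0.04; adjusted p = 7.20e-05) and -0.46 (SE 0.04; adjusted p = 5.46e-09).

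dd_Smed_v6_219_0_1 also rose. It had 939, 971, 889 and 958 CPM in control at 0 h, 1771, 1686, 1672 and 1799 at 2 d and 1596, 1508, 1633 and 1540.2 at 4 d, and in egr-2 RNAi 1054, 1042, 1033 and 1070.3, 2034, 1837, 1896 and 1811 and 1699.5, 1501, 1387 and 1379.9. The later libraries lay above all 0 h libraries in both conditions, with a log2 fold change to 2 d of 0.88 (SE 0.05; adjusted p = 5.26e-14) in control and 0.85 (SE 0.05; adjusted p = 9.68e-14) in egr-2 RNAi.

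By 4 d the largest rises were those of dd_Smed_v6_579_0_1 and dd_Smed_v6_220_0_1. dd_Smed_v6_579_0_1 had 979, 1246, 1081 and 1070.5 CPM in control at 0 h, 1602, 1840.2, 1649 and 1785 at 2 d and 1973, 1999.9, 2064 and 2071 at 4 d, and in egr-2 RNAi 733, 1201, 1291 and 894, 1490.4, 1469.8, 1704 and 1635 and 1789, 1675, 1742 and 1785. The lowest of all 24 libraries was egr-2 RNAi replicate 1 at 0 h, and 4 d was above 0 h in every library, with a log2 change of 0.89 (SE 0.11; adjusted p = 3.87e-08) in control and 0.76 (SE 0.11; adjusted p = 5.55e-07) in egr-2 RNAi.

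dd_Smed_v6_220_0_1 had 879.7, 855, 849.7 and 837 CPM in control at 0 h, 1371, 1401, 1347 and 1417 at 2 d and 1618, 1525, 1437 and 1473 at 4 d, and in egr-2 RNAi 832, 782, 819 and 746, 1486, 1412, 1391 and 1413 and 1458, 1361, 1354 and 1399. The later libraries stood clear of 0 h in both conditions. Its log2 fold change from 0 h to 4 d was 0.82 (SE 0.04; adjusted p = 2.98e-15) in control and 0.81 (SE 0.04; adjusted p = 4.30e-15) in egr-2 RNAi.

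Some members fell by 2 d and then rose by 4 d. dd_Smed_v6_649_0_1 had 1757, 1961, 2034 and 2117 CPM in control at 0 h, 1232, 1250.5, 1131 and 1178 at 2 d and 2386, 2399, 2236 and 2469.8 at 4 d, and in egr-2 RNAi 1259, 2041, 2017 and 1760.1, 1345, 1216, 1298 and 1239 and 2590.4, 2265, 2297 and 2499. In control the 3 times did not overlap and 4 d was the highest, while in egr-2 RNAi replicate 1 at 0 h lay within the 2 d range. The rise from 2 d to 4 d was 0.99 (SE 0.09; adjusted p = 2.41e-09) in control and 0.92 (SE 0.09; adjusted p = 1.01e-08) in egr-2 RNAi, log2 fold changes of the quasi-likelihood test.

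dd_Smed_v6_432_0_1 had 2169.8, 2724, 2272 and 1970.3 CPM in control at 0 h, 1081, 1109.8, 1011 and 986 at 2 d and 1607, 1702, 1643 and 1793 at 4 d, and in egr-2 RNAi 1745, 1921, 2318 and 1497, 843, 729.7, 965 and 818 and 1407, 1245, 1396 and 1336. In both conditions the 2 d libraries were the lowest. The rise from 2 d to 4 d was 0.69 (SE 0.10; adjusted p = 3.60e-06) in control and 0.68 (SE 0.10; adjusted p = 4.11e-06) in egr-2 RNAi. The largest falls over the same step were those of dd_Smed_v6_76_0_1 and dd_Smed_v6_85_0_1, given above.

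Over all 24 libraries, the highest raw CPM of a member was 1.71 times its lowest in the median. For 37 members the ratio was below 1.5 and for 61 below 2, for 33 it was between 2 and 10, and for the 6 nearly lost IDs it was above 200. For the next 100 ranks the median ratio was 1.56.

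In the fit over all groups, calls for egr-2 RNAi were more numerous at 0 h than at 2 d and 4 d, an order that turned when each time was fitted alone. At 0 h, 21 members passed, 19 higher and 2 lower, against 5.69% of all tested IDs (4.25% higher and 1.44% lower). Sizes were small, with a median of 0.32 on the log2 scale regardless of sign, and 1 of them was over 2-fold. With total counts alone 12 were higher and 10 lower, against 2.04% and 3.66% of all tested IDs, and the members' median log2 effect was 0.06 with TMM and -0.0036 with total counts. In 15 of the 21 the conditions did not overlap, and 30 of all 100 members did not overlap, against 9.59% of all tested IDs. Fitting each time alone called 5 members at 0 h, 14 at 2 d and 12 at 4 d. The share of all tested IDs in those fits is not given here, so these counts show no shift particular to the members. Without control replicate 1 the 0 h count was 13 in the fit over all groups. Replicates 1 and 4 of egr-2 RNAi at 0 h both stood apart over all IDs. Measured against counting error as chi-square per degree of freedom, replicate 1 differed most, by up to 25.9. Replicate 4 differed from replicates 2 and 3 by 15.8 and 16.5, against 5.53 between those. Over the members the largest value of all pairs was 1368, between replicates 3 and 4. Without replicate 1, 17 calls were left. Without replicate 4 the call of dd_Smed_v6_7_0_1 was lost, and the count is given only within the range of 13 to 24.

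dd_Smed_v6_7_0_1 had the largest rise at 0 h with no overlap, from 1568, 1836, 1795 and 1454 CPM in control to 2948, 2839.7, 1925 and 3802 in egr-2 RNAi. At 2 d it had 606, 735, 697 and 628 CPM in control and 826, 1197, 956 and 716 in egr-2 RNAi, and at 4 d 706, 491, 675 and 1038 and 609.6, 1030.2, 815 and 883, both with overlap. The log2 effect was 0.79 (SE 0.18; adjusted p = 0.010) at 0 h, 0.47 at 2 d and 0.20 at 4 d by the quasi-likelihood test, where the later values had an adjusted p of 0.377 and 0.786. The replicates at 0 h in egr-2 RNAi spread nearly 2-fold, and without replicate 4 the adjusted p at 0 h was 0.059. With time it fell in both conditions, with a log2 fold change from 0 h to 2 d of -1.32 (SE 0.19; adjusted p = 7.78e-07) in control and -1.64 (SE 0.19; adjusted p = 1.74e-08) in egr-2 RNAi.

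dd_Smed_v6_10_0_1 rose from 2325, 3557, 3222 and 3627 CPM in control to 4975, 3711, 4202 and 5734 in egr-2 RNAi at 0 h. At 2 d it had 2674, 2714, 2699 and 2682 CPM in control and 2621, 2844, 2871 and 3423 in egr-2 RNAi, and at 4 d 2216, 2572, 2590.2 and 2297 and 2857, 2678, 2553 and 2585. The conditions were apart at 0 h and overlapped later, and control replicate 1 at 0 h was low. The log2 effect was 0.55 (SE 0.11; adjusted p = 0.0035) at 0 h, and fitting the 0 h groups alone gave an adjusted p of 0.12. Another contig shares its component number, so its reads may be divided.

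The single call above 2-fold at 0 h was dd_Smed_v6_4_1_1, named here after its values were seen, with a log2 effect of 1.11 (SE 0.28, quasi-likelihood adjusted p = 0.016) and overlapping groups. The 2 members called lower, also named after their values were seen, were dd_Smed_v6_194_0_1 with -0.65 (adjusted p = 0.0040) and dd_Smed_v6_238_1_1 with -0.53 (adjusted p = 0.018), both with overlap. Both contigs are longer than 5000 bases. Of the 11 members of at least 5000 bases 0 were called higher and 2 lower at 0 h, and of the 89 shorter ones 19 and 0. Among all tested IDs of at least 5000 bases 0 of 412 were higher and 50 lower. The part of contig length in these calls was not tested.

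At 2 d, 4 members passed, 2 higher and 2 lower, against 0.364% of all tested IDs (0.177% higher and 0.187% lower), and with total counts alone it was 2 higher and 4 lower, against 0.182% and 0.248%. The higher ones were dd_Smed_v6_320_0_1 and dd_Smed_v6_131_0_1 and the lower ones dd_Smed_v6_274_0_1 and dd_Smed_v6_85_0_1. The count was 0 without control replicate 2 or 3 or without egr-2 RNAi replicate 1, 2 or 4, and 11 without egr-2 RNAi replicate 3. Of all 100 members 15 did not overlap between the conditions at 2 d, against 7.07% of all tested IDs. dd_Smed_v6_320_0_1, the only one of the 4 called without overlap, had 2822, 2985, 2902 and 3007 CPM in control and 3528, 3293, 3409 and 3254 in egr-2 RNAi at 2 d. At 0 h it had 1626, 1632, 1734 and 1664 CPM and 1849.7, 1847, 2076 and 1803, and at 4 d 2343, 2448, 2332 and 2456 and 2361, 2402, 2358 and 2318. The conditions were apart at 0 h and 2 d and overlapped at 4 d, with log2 effects of 0.19 (SE 0.04; adjusted p = 0.011), 0.20 (SE 0.04; adjusted p = 0.032) and -0.02 (adjusted p = 0.929) in the quasi-likelihood test. With total counts alone the effect was 0.12 (quasi-likelihood adjusted p = 0.076) at 0 h, which missed the threshold, and 0.19 (adjusted p = 0.028) at 2 d. The call at 2 d was lost in 7 of 8 fits that left out 1 of the 2 d libraries. With time it rose to 2 d in both conditions, by 0.82 in control and 0.83 in egr-2 RNAi, and then fell.

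At 4 d, 6 members passed, 4 higher and 2 lower, against 2.35% of all tested IDs (1.7% higher and 0.653% lower), and in all 6 the conditions did not overlap. Of all 100 members 15 did not overlap at 4 d, against 9.19% of all tested IDs. Without control replicate 1 the count of calls was 3. dd_Smed_v6_181_0_1 had the largest rise, from 1304, 1329, 1455 and 1254 CPM in control to 1820.1, 1704, 1640.5 and 1703 in egr-2 RNAi. At 0 h it had 2121, 2249, 2155 and 2223 CPM in control and 2269, 2095, 2204 and 2361 in egr-2 RNAi, and at 2 d 1659, 1689.7, 1644 and 1691 and 1844, 1703, 1761 and 1732. The log2 effect was 0.36 (SE 0.05; adjusted p = 3.92e-05) at 4 d, after 0.03 at 0 h and 0.07 at 2 d (quasi-likelihood adjusted p = 0.759 and 0.667). In control its log2 fold change from 2 d to 4 d was -0.32 (adjusted p = 5.54e-06), and in egr-2 RNAi it was -0.04 (adjusted p = 0.638).

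dd_Smed_v6_27_0_1 had higher fitted levels under egr-2 RNAi at all 3 times. At 0 h it had 1765, 2298, 2137 and 2315 CPM in control and 2871, 2618, 2887 and 2988 in egr-2 RNAi. At 2 d the values were 2288, 2369, 2085 and 2229 and 2976, 2879, 2464 and 2806, and at 4 d 2089.8, 2126, 2168 and 2334 and 2967, 2756, 2413 and 2862. All egr-2 RNAi libraries lay above all control libraries at each time. The log2 effect was 0.42 (SE 0.07; adjusted p = 0.0010) at 0 h, 0.31 (SE 0.07; adjusted p = 0.054) at 2 d and 0.34 (SE 0.07; adjusted p = 0.0088) at 4 d in the quasi-likelihood test, so the 2 d value missed the threshold. From 0 h to 2 d it changed by 0.08 in control (adjusted p = 0.424), and with total counts alone by 0.32 (adjusted p = 2.97e-04).

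dd_Smed_v6_51_1_1, of the nearly lost group, fell under egr-2 RNAi at 4 d. It had 31.1, 19.6, 27.0 and 19.4 CPM in control and 11.2, 19.1, 15.5 and 7.87 in egr-2 RNAi, and at 2 d 319.8, 364, 464 and 238 and 212, 130.4, 240.0 and 179. At 0 h it had 5289, 4833, 5619.9 and 5684 CPM in control and 5582, 4868, 4644 and 3387 in egr-2 RNAi. The conditions were apart at 4 d, if narrowly, and overlapped at 0 h and, by 1 library each, at 2 d. The log2 effect was -0.86 (SE 0.22; adjusted p = 0.037) at 4 d and -0.87 (SE 0.20; adjusted p = 0.051) at 2 d, by the quasi-likelihood test. These SEs and p also use 1 estimate of spread over all groups and do not measure the spread at 4 d or 2 d alone. The 4 d call was lost in 5 of 8 fits that left out 1 of the 4 d libraries.

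The values of dd_Smed_v6_280_0_1 at 4 d, given above, were lower under egr-2 RNAi in all 4 libraries, with a log2 effect of -0.31 (SE 0.04; adjusted p = 1.14e-04). The effect at 0 h was 0.01 and that at 2 d -0.10 (quasi-likelihood adjusted p = 0.945 and 0.477). Its rise from 0 h to 4 d was 0.68 in control and 0.36 in egr-2 RNAi.

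The difference between the RNAi effects at 2 times was tested as well. Between 4 d and 0 h it passed for 2 members, 1 higher and 1 lower, against 0.283% of all tested IDs (0.081% higher and 0.202% lower), and with total counts alone for 2 higher and 1 lower, against 0.162% and 0.0961%. These were dd_Smed_v6_280_0_1 with -0.32 (SE 0.06; adjusted p = 0.024) and dd_Smed_v6_181_0_1 with 0.33 (SE 0.07; adjusted p = 0.026), log2 differences of effects in the quasi-likelihood test. The count was 0 without control 0 h replicate 3 or egr-2 RNAi 4 d replicate 4. It was 1 without control 0 h replicate 4, control 4 d replicate 2 or 4 or egr-2 RNAi 4 d replicate 2 or 3, and 4 without egr-2 RNAi 4 d replicate 1. Between 2 d and 0 h, 0 members passed in edgeR, against 0.182% of all tested IDs (0.0152% higher and 0.167% lower), with 22 at an unadjusted p below 0.05 and 1 by DESeq2. Between 4 d and 2 d, 0 passed, against 0.0911% (0.0708% higher and 0.0202% lower), with 12 at an unadjusted p below 0.05 and 1 by DESeq2. Each of these counts of 0 became 1 in some fits without 1 library, namely without control 2 d replicate 2, egr-2 RNAi 0 h replicate 1 or egr-2 RNAi 2 d replicate 3, and without control 4 d replicate 3.

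**Figure D5:**
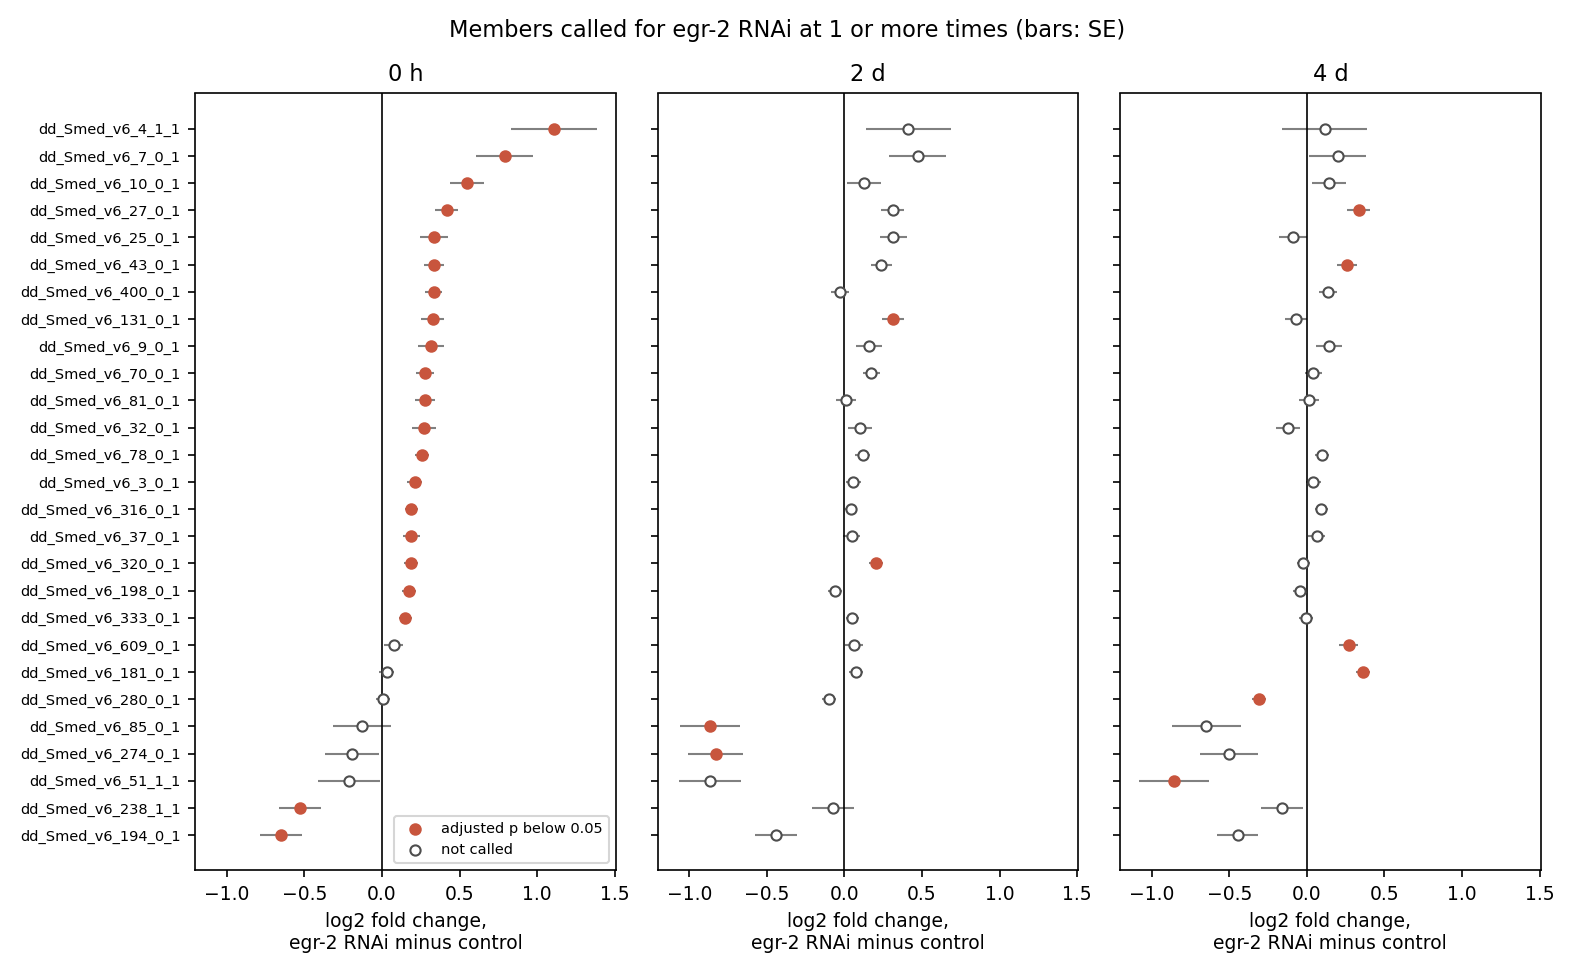
Log2 fold change under egr-2 RNAi against control at 0 h, 2 d and 4 d for the 27 members called at 1 or more times, ordered by the 0 h value. Filled points have an adjusted p below 0.05, open points do not, and bars are standard errors. Filled points number 21 at 0 h, 4 at 2 d and 6 at 4 d, and most values lie within 0.5 of 0.

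Over the 3 times, 27 members were called at least once, 23 of them at 1 time and 4 at 2 times, and 73 at none. Of all tested IDs 7.43% were called at least once, 6.52% at 1 time and 0.85% at 2 times. The 4, named here after their values were seen where not named above, were dd_Smed_v6_27_0_1 and dd_Smed_v6_43_0_1 at 0 h and 4 d, and dd_Smed_v6_320_0_1 and dd_Smed_v6_131_0_1 at 0 h and 2 d. With total counts alone the calls of dd_Smed_v6_320_0_1 at 0 h and of dd_Smed_v6_131_0_1 at 2 d were lost, and dd_Smed_v6_27_0_1 was called at 2 d as well.

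In the authors' deposited table, which lists 16812 IDs and all 100 members, 15 members were called at 0 h under egr-2 RNAi, 13 higher and 2 lower, against 8.48% of its IDs. It called 5 members at 2 d, 1 higher and 4 lower, and 6 at 4 d, 4 higher and 2 lower, against 1.14% and 3.79%. From 0 h to 2 d and 4 d in control the authors' deposited table called 80 and 79 members, 63 of them lower each time, against 55.9% and 56.9%. In egr-2 RNAi the authors' deposited table called 86 at 2 d and 86 at 4 d, against 57.7% and 58.1%. Its log2 fold changes differed from those of the fit here by at most 0.014 over the members, and 0 members were called in opposite directions.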

How the data were processed

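RNA was measured by sequencing in 24 libraries of pooled tail fragments, 4 in each of 6 groups, which were taken from the sample titles. The authors deposited a table of raw counts per transcript contig, and a table of their own comparisons with log2 fold changes, mean log2 CPM and adjusted p-values, per the file headers. Per the labels the kit was NEB NEXT ULTRA, and the design text names BBDuk, Bowtie2 and edgeR. The submitters' processing notes name FastQC 0.11.5, Bowtie2 2.3.1, featureCounts and Subread 1.6.3. Whether counting used strand is not given in the sources used here, so reads of a contig and of an overlapping antisense contig cannot be told apart. The deposited contig length was used for TPM.

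The members were the 100 IDs with the highest mean CPM, that is the count scaled to a fixed library total. The members and lists were chosen with earlier results of these data known. Counts were fitted with edgeR 4.0.16 (R 4.3.3, limma 3.58.1): TMM scaling, filterByExpr (minimum count 10, minimum total 15), 1 mean per group over all 24 libraries, the quasi-likelihood test and Benjamini-Hochberg adjustment over 19761 IDs, with a threshold of 0.05. The filter kept 99.91% to 99.95% of the counts of a library. TMM-normalised CPM divides by the total times the TMM factor, and "did not overlap" refers to it. Total counts of 13449251 to 30829850 bound the precision, and the smallest count of a member was 191. The procedure was tested on simulated data. The 24 libraries differed from one another beyond counting error in each of the 36 pairs of replicates, with a chi-square per degree of freedom of 2.53 to 25.9, so none were merged.

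Named IDs were the 5 with the highest mean CPM, and in each control time comparison and each RNAi effect the 2 largest rises and the 2 largest falls among members with an adjusted p below 0.05 and no overlap between groups. Also named were the member with the lowest adjusted p in each difference of effects where it was below 0.05, ranks 98 to 103, and the member with the largest part of the change in share. IDs named outside this rule were chosen after their values were seen. Lists by gene description and by cell type marker were planned but not used, since the tables hold no names. Alternatives were RLE factors, total counts alone, TMM without the members, no filter, a filter of at least 1 CPM in 4 libraries, DESeq2 1.42.0, a fit of the compared groups alone, a replicate block, leaving out each library, and members chosen by median CPM, by TPM or in other libraries. Tables were handled with pandas 2.3.3 and numpy 2.4.6 under Python 3.11.15.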

Additional observations from a re-analysis of the deposited data

Results flagged for a closer look

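In 138 sets of 4 replicate values, 7 held a library farther from the rest than Dixon's test allows at its 95% level. Chance alone gives about 1 in 20, so 7 is close to the number that chance alone would give. The libraries below are therefore listed as a description only. For ranks 1 to 10, egr-2 RNAi replicate 1 at 4 d held 7.23% of the counts, against 6.95% to 6.98% in the other 3. For the 100 members together, control replicate 4 at 0 h held 26.0%, the lowest share, against 26.7% in each of the other 3.

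dd_Smed_v6_280_0_1 had 4 such libraries on the TMM-normalised CPM scale. They were control replicate 2 at 0 h with 1565, control replicate 3 at 2 d with 2818, control replicate 1 at 4 d with 2631 and egr-2 RNAi replicate 1 at 4 d with 2175. The other replicates lay very close together in each case, for example at 1534 to 1535 in control at 0 h. dd_Smed_v6_274_0_1 had 6237 in egr-2 RNAi replicate 4 at 0 h, against 7599 to 7697 in the other 3.

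The RNAi effect differed between 4 d and 0 h for 2 members by the edgeR quasi-likelihood interaction test. The log2 difference was -0.32 for dd_Smed_v6_280_0_1 (adjusted p = 0.024), whose effect was 0.01 at 0 h and -0.31 at 4 d. It was 0.33 for dd_Smed_v6_181_0_1 (adjusted p = 0.026), whose effect was 0.03 at 0 h and 0.36 at 4 d. The values of dd_Smed_v6_280_0_1 in the distant libraries lie within the same groups as its interaction, and their part in it was not tested beyond leaving out single libraries.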

How the results depend on the processing

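Of 308 alternatives for counts and shares 253 stayed near the main value. Counts and shares are never negative, so these alternatives could not reverse and do not bear on direction. The split into higher and lower members and the order of RNAi calls over the times did depend on the setting, as given above. Fitting the compared groups alone called 5 members for the RNAi effect at 0 h, 14 at 2 d and 12 at 4 d, and 0 for the difference of 4 d and 0 h and 1 for 4 d and 2 d. DESeq2 called 7 members at 2 d and 10 at 4 d, and 1, 5 and 1 for the differences of 2 d and 0 h, 4 d and 0 h, and 4 d and 2 d. Without a filter there were 7 calls at 2 d and 1 for the difference of 2 d and 0 h, and total counts alone gave 1 for 4 d and 2 d. With members by median CPM, 2 were called at 2 d and 1 for the difference of 4 d and 2 d, and with members by TPM 7 at 2 d and 1 for the difference of 2 d and 0 h. Shares of all tested IDs are not set beside these counts, so they show no shift particular to the members. The cause of these shifts was not tested.

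By median CPM the members held 23.3%, 21.0% and 21.4% of the control counts at 0 h, 2 d and 4 d and 23.8%, 21.1% and 21.5% in egr-2 RNAi. By TPM they held 23.5%, 17.8% and 17.9% in control and 24.2%, 17.9% and 17.9% in egr-2 RNAi. Chosen in the other 20 libraries, they held 25.5% in control and 25.9% in egr-2 RNAi at 0 h.

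Same-numbered replicates correlated at -0.095 to 0.15 in their deviations, and in 0 comparisons were all 4 above 0.1, so the numbers were not read as pairs. In each comparison 0 to 6 of 8 samples correlated best with their own number, which is a hint from the data and not the design. The fit with the replicate block called 24 members at 0 h, 10 at 2 d and 12 at 4 d for the RNAi effect, and 1 for the difference of 2 d and 0 h and 6 for 4 d and 0 h. Of the 6 nearly lost IDs it called 5 at 2 d and 2 at 4 d. No share of all tested IDs is set beside these counts, nor beside those below without 1 library.

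Leaving out 1 library gave 13 to 24 RNAi calls at 0 h, 0 to 11 at 2 d and 3 to 6 at 4 d, and 0 to 1, 0 to 4 and 0 to 1 for the differences of 2 d and 0 h, 4 d and 0 h, and 4 d and 2 d. For the time comparisons it gave 80 to 83, 79 to 82 and 30 to 36 in control and 84 to 87, 85 to 87 and 36 to 44 in egr-2 RNAi. Of 360 alternatives for the named results 341 kept their call and 19 lost it, among them dd_Smed_v6_280_0_1 for the difference of 4 d and 0 h when only the compared groups were fitted (adjusted p = 0.087 in edgeR) and in 4 fits without 1 library (adjusted p 0.051 to 0.069). Depth was no limit for the 94 other members, whose lowest count was 9892. For the 6 nearly lost IDs at 4 d counts were 191 to 2186.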
